A study of Homo sapiens with 2 samples.

Results

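Histone-modifying enzymes and Polycomb genes were described in 2 states of H9, an established human embryonic stem cell line. Members were all listed genes whose symbol begins with KDM, KMT, KAT or SETD and a number, the HDAC, SIRT and CBX genes with a number, and 14 named Polycomb and histone H3 lysine 9 methyltransferase genes. The choice gave 89 of 22474 listed genes, of which 81 are coding genes and 8 are antisense transcripts, divergent transcripts or pseudogenes with a matching symbol. The reference state was the H9 embryonic stem cells (ESCs), and the compared state was their conversion product, feeder-free extended pluripotent stem cells (ffEPSCs). For either state, culture medium, passage and time since conversion were not given in the sources used here. Single cells were sequenced with Smart-seq2, which amplifies cDNA of polyadenylated RNA without molecular identifiers. The ESC sample held 16 cells and the ffEPSC sample 25 cells. Each state was 1 sample, so cells were not replicates and no difference between the states was tested.

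Histone-modifying enzymes write, remove and read chemical marks on the tails of histone proteins. Polycomb repressive complex 2 (PRC2) methylates lysine 27 of histone H3 (H3K27), and Polycomb repressive complex 1 (PRC1) ubiquitinates histone H2A. Together they keep developmental genes silent but inducible in pluripotent cells, where many such promoters also carry the H3K4 methylation written by the KMT2 and SETD1 enzymes. Methylation of H3K9 is bound by heterochromatin protein 1 (HP1), and acetylation, written by acetyltransferases and removed by deacetylases, accompanies active genes.

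The count tables gave between 11714517 and 19965639 gene counts per ESC cell and between 12507469 and 17811209 per ffEPSC cell. Levels are counts per 1000000 gene counts (CPM) of the counts summed over a sample's cells, with exact Poisson 95% intervals that cover counting error only. Each ratio is the log2 of the ffEPSC level divided by the ESC level, with 1 CPM added to both, which understates differences of low genes. The 4 shallowest ESC cells held 11714517 to 14683949 counts and at most 218 CPM of POU5F1, against at least 496 CPM in the other 12 ESC cells. The set number in each cell's name has a meaning not given in the sources used here. Set 1 held 7 ESC and 3 ffEPSC cells and set 3 held 9 and 2, while set 2 (9 cells) and set 4 (11 cells) were all ffEPSC. Only sets 1 and 3 held both states, and where 2 ratios follow "with", they are those within sets 1 and 3, in that order. All 8 listed pluripotency markers were above 5 CPM in both samples, whereas 0 of 7 naive-type markers in ESCs and 6 of 7 in ffEPSCs were. Of 7 primed-type markers, 7 in ESCs and 6 in ffEPSCs were above 5 CPM. The summed primed-type level had a median of 788 CPM over ESC cells and 287 CPM over ffEPSC cells. For the naive-type sum these medians were 10.6 and 282 CPM. Of 9 fibroblast or feeder markers 6 were listed, and their summed level ran from 143 to 765 CPM (median 514) in ESC cells and from 47.6 to 414 CPM (median 212) in ffEPSC cells. THY1, also found on pluripotent cells, made up most of it, COL3A1, LUM and DCN were not listed, and the part of feeder RNA in the results below was not tested. Genes of chromosomes 5, 11, 14, 20 and 22 had median ratios of 0.32 to 0.48, against 0.04 for all genes, and 13 of the measured members lie there.

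Most of these enzymes differed little between the states. Of the 81 coding members, 72 reached 5 CPM in at least 1 sample and were treated as measured, 7 of them only through the ffEPSC sample and 2 only through the ESC sample. Their median log2 ratio was 0.19, beside 0.04 for all 10825 measured genes. Above 0 were 43 members and below 0 were 29, beside 5726 and 5099 of all measured genes. In the ffEPSC sample 7 members (9.72%) were at least 2-fold higher, beside 8.3% of all measured genes, a share near that background. These were HDAC8, HDAC6, KDM4C, KDM6B, KMT5B, SIRT3 and BMI1. None of the 72 was at least 2-fold lower, beside 5.84% of all genes. At 1.5-fold, 20 members (27.8%) were higher, beside 18.7% of all genes, and 7 (9.72%) were lower, beside 13.4%. BMI1, KDM4C and KDM6B passed the floor only through the ffEPSC sample, so a difference was built into their selection. There was no member for which all cells of one state lay above all cells of the other, beside 0.102% of all genes with every ffEPSC cell higher and 0.111% with every ffEPSC cell lower.

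**Figure D1:**
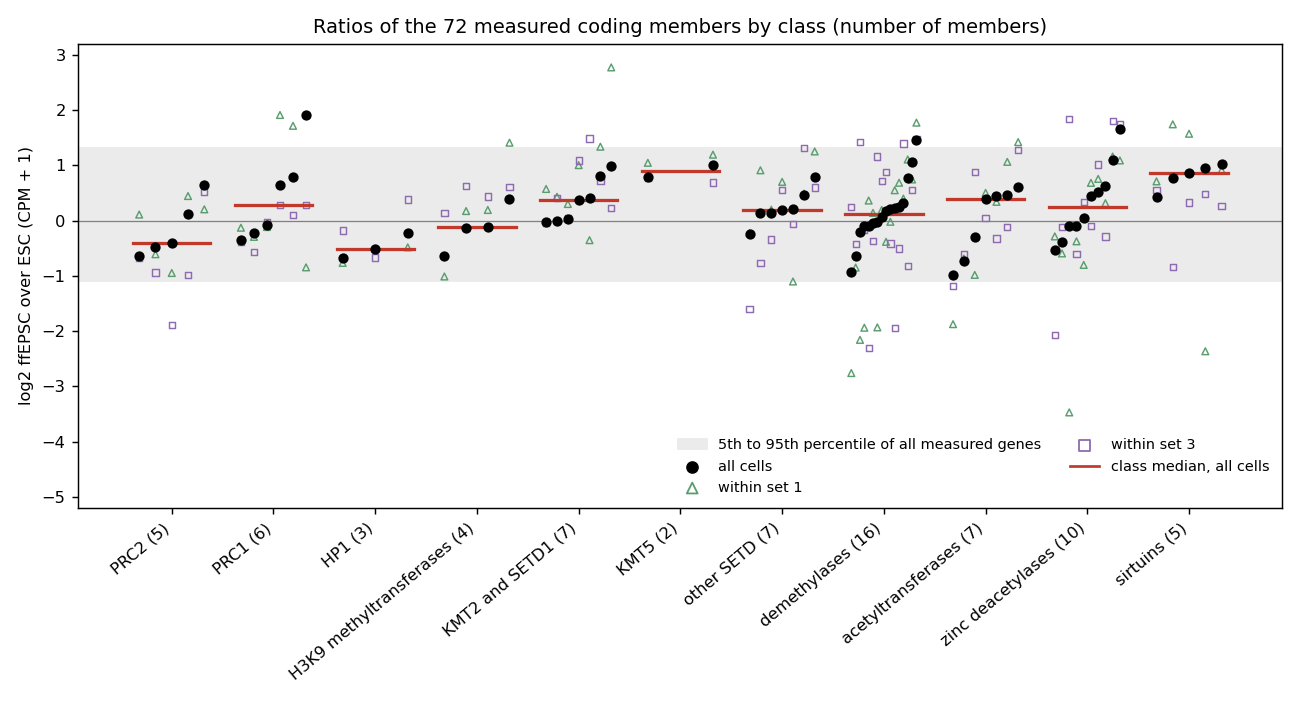
Log2 ratio of ffEPSC over ESC for each of the 72 measured coding members, grouped by class (x axis, number of members in parentheses), over all cells (black), within set 1 (green triangles) and within set 3 (purple squares). Red lines are class medians over all cells, from -0.51 for HP1 to 0.90 for KMT5, and the grey band is the 5th to 95th percentile of all measured genes, -1.10 to 1.31.

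Ratios of the same members differed between the sets that held both states. Within set 1, 18 of 70 measured members were at least 2-fold higher and 8 lower, beside 17.8% and 11.3% of all genes, and within set 3, 13 of 69 were higher and 5 lower, beside 12.7% and 14.8%. At 1.5-fold, 25 of 70 members were higher within set 1 and 16 lower, beside 29.4% and 20% of all genes. In set 3, 22 of 69 were higher and 14 lower, beside 22.9% and 24.2%. Between the ESC cells of sets 3 and 1, with no difference of state, 9 of 68 members were at least 1.5-fold higher and 7 lower, beside 12.7% and 10.9%. Between the ffEPSC cells of sets 4 and 2, 4 of 70 were higher and 6 lower, beside 8.86% and 10.7%. The sign over all cells was kept within both sets 1 and 3 by 40 of 72 members (55.6%), which is close to the 53.4% of all genes.

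A stricter description, set after the values were seen, asked for a 1.5-fold difference with the same sign within sets 1 and 3 and a size above both set differences within a state. It kept 12 higher members (16.7%), beside 11% of all genes, and 4 lower members (5.56%), beside 9.06%. The higher members were JARID2, PCGF1, KMT2B, KMT2C, KMT5A, KMT5B, SETD5, KDM4C, KDM6B, HDAC6, HDAC8 and SIRT3. KMT2B, KDM4C and KDM6B passed the 5 CPM floor only through the ffEPSC sample, where they are high. The lower members were CBX5, KDM5B, KAT6A and KAT7. They span writers, erasers and readers of several marks, and their values stand with their classes.

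**Figure D2:**
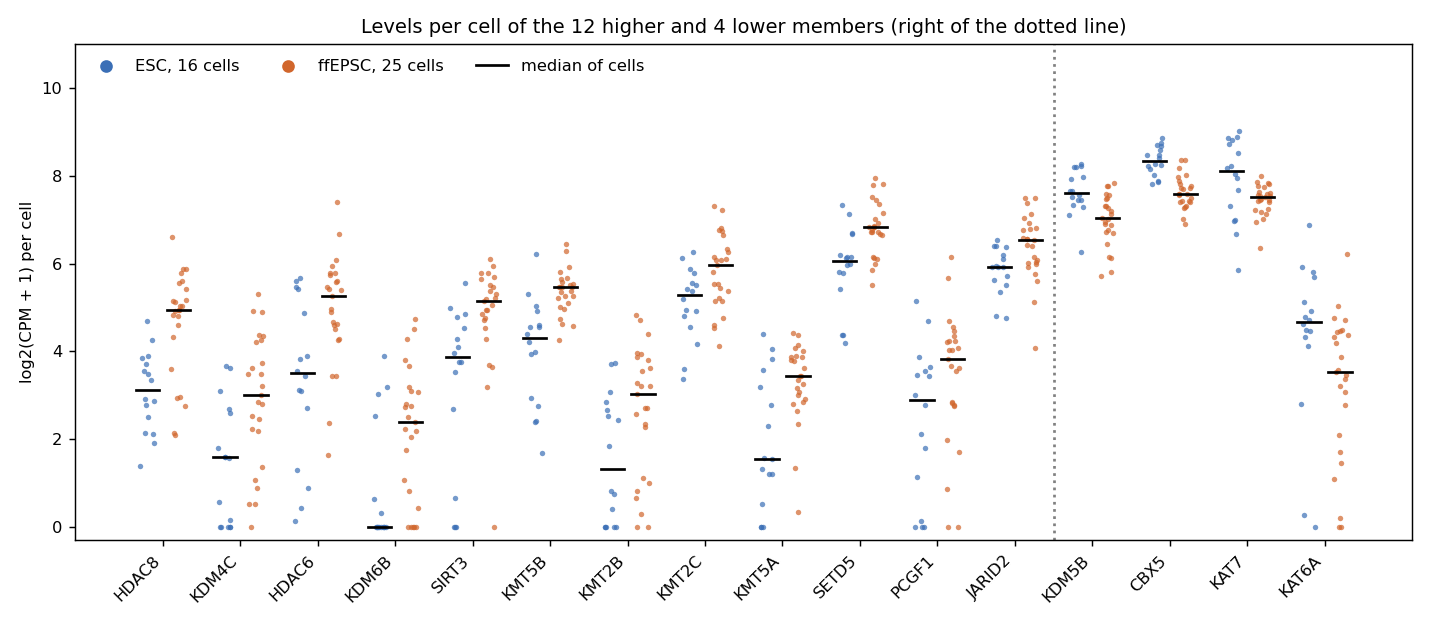
Level of each of these 16 members in every cell, as log2(CPM + 1) on the y axis, with ESC cells in blue, ffEPSC cells in orange and the median of cells as a black line. The cells of the states overlap for all 16, most narrowly for HDAC8, where 17 of 25 ffEPSC cells lie above every ESC cell, and CBX5, where 19 of 25 lie below every ESC cell.

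Promoters of 5 of these members are shown because the data concern their RNA levels and their promoters differ in type. RefSeq promoter windows of 250 bases before to 50 after the start (GRCh38.p14, first listed start) matched 73 of the 81 coding members, 67 of them measured. A median of 29 CpG dinucleotides stood in the windows of the measured members, beside 26 in those of all measured genes and 14 in all 27305 promoters. Of the motifs searched on both strands, the GC box GGGCGG was in 71.6% of member promoters and 44.6% of all, CCAAT in 31.3% and 35.7%, the TATA box TATAAA in 1.49% and 12%, the E-box CACGTG in 14.9% and 7.43%, and the ETS core CCGGAAG in 19.4% and 10.7%. The cAMP response element TGACGTCA was in 1.49% of member promoters and 1.98% of all, and the E2F core TTCCCGCC in 5.97% and 3.18%. Among promoters of all measured genes the shares were 71.3% for the GC box, 37.9% for CCAAT, 5.14% for the TATA box, 10.5% for the E-box, 21.5% for the ETS core, 3.60% for the cAMP response element and 5.55% for the E2F core. The 120 bases before the start, 5′ to 3′ along the gene, are given for 3 of the higher members and 2 of the lower, with any of these motifs in capitals.
HDAC8, chrX:72572844-72572963, minus strand: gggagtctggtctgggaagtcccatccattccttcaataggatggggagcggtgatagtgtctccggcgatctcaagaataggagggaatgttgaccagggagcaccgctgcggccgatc
KDM4C, chr9:6757853-6757972, plus strand: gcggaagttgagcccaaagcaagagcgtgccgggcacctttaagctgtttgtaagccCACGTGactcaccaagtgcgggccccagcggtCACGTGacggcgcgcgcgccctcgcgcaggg
SETD5, chr3:9397495-9397614, plus strand: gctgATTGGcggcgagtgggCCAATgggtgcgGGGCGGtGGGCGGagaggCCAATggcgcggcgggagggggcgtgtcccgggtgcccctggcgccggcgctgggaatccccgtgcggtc
KAT7, chr17:49788561-49788680, plus strand: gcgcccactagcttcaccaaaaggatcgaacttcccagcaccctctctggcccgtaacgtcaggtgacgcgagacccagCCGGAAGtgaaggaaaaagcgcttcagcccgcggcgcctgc
KDM5B, chr1:202808422-202808541, minus strand: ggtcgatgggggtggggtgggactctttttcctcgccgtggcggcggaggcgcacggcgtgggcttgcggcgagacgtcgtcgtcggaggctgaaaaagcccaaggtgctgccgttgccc
HDAC8 had 9 CpG in its whole window with 49.3% G and C, KDM4C 29, SETD5 33, KAT7 19 and KDM5B 34. Among these 5, the higher members ran from a CpG-poor promoter without any of these letters to one with CCAAT and GC boxes side by side. A match is a description of letters, not of a bound factor.

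PRC2 members lay on either side of their ESC levels, and their summed level had a log2 ratio of -0.17. EZH2, the main H3K27 methyltransferase, was at 117 CPM in ESCs against 75.4 CPM in ffEPSCs, a log2 ratio of -0.63. Its level ran from 47.0 to 183 CPM with a median of 122 over ESC cells, and from 6.53 to 195 CPM with a median of 75.0 over ffEPSC cells. Cells of the states overlapped, with 23 of 25 ffEPSC cells below the ESC median, but the ratio was 0.11 within set 1 and -0.68 within set 3. EED, the subunit that binds methylated H3K27, was at 76.6 and 54.7 CPM (-0.48), and at -0.61 and -0.94 within sets 1 and 3. It lies on chromosome 11, and its ratio was -0.82 after subtracting that chromosome's median. SUZ12, which holds the complex together, was at 24.4 and 26.7 CPM (0.13, with 0.45 and -0.98), and EZH1, the alternative methyltransferase, at 19.9 and 14.7 CPM (-0.41, with -0.95 and -1.89).

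JARID2, a PRC2 cofactor that helps bring the complex to chromatin, was the only one of the 5 that was at least 1.5-fold higher in ffEPSCs. The ESC cells lay between 26.2 and 92.1 CPM with a median of 59.8, and ffEPSC cells between 15.9 and 180 CPM with a median of 92.5. Thus 13 of 25 ffEPSC cells were above every ESC cell and 1 was below every ESC cell. The summed level was 59.3 CPM (58.3 to 60.2) in ESCs against 93.5 CPM (92.5 to 94.5) in ffEPSCs, a log2 ratio of 0.65, with 0.21 and 0.52 within sets 1 and 3. Over the 5 PRC2 members the median ratio was -0.41, but 0.11 within set 1 and -0.94 within set 3.

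The catalytic subunit of PRC1 differed by less than 1.5-fold. RNF2, this E3 ubiquitin ligase, was at 112 CPM in ESCs against 96.1 CPM in ffEPSCs (-0.23), with -0.29 and -0.57 within sets 1 and 3. Per length of the principal transcript, RNF2 made up 97.3% of the RNF2 and RING1 level in ESCs and 96.3% in ffEPSCs, since RING1 stayed under 5 CPM in both samples. The PCGF subunits define the variants of PRC1. The 3 among the members had ratios above 0 over all cells, beside 5726 of the 10825 measured genes. PCGF6, part of a variant that represses germline genes, was at 33.6 and 52.9 CPM (0.64), with 1.91 within set 1 and 0.29 within set 3. Its ESC sets differed by 1.32 themselves, more than the states did. PCGF1, part of the variant that holds BCOR and KDM2B, was at 8.30 and 15 CPM (0.78), with 1.72 and 0.10.

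BMI1, the PCGF subunit of canonical PRC1, had the largest ratio among the measured members, 1.92, carried by 1 set of cells. It was at 1.37 CPM in ESCs, where the median cell was at 0, and at 7.97 CPM in ffEPSCs. The ffEPSC cells of set 2 held 18.9 CPM, against 0.508 in set 1, 1.59 in set 3 and 2.29 in set 4, and 1 cell carried 25.5% of the ffEPSC counts. Where sets held both states the ratio was -0.85 and 0.29, so the difference rests on the ffEPSC cells of set 2. The chromodomain subunits CBX2 and CBX6, which bind methylated H3K27, were at 30.4 and 29 CPM (-0.07, with -0.11 and -0.02) and at 34.9 and 27.3 CPM (-0.34, with -0.13 and -0.39). CBX6 lies on chromosome 22, and its ratio was -0.82 after subtracting that chromosome's median. CBX7 and CBX8 stayed under 5 CPM in both samples. CBX8 had 0 counts in ESCs and 2.15 CPM in ffEPSCs (0 in set 1), with at least 1 CPM in 10 of 25 cells.

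HP1 proteins are the readers of H3K9 methylation, and of the 3 members only CBX5 was at least 1.5-fold lower, beside 13.4% of all genes. Their summed level ran from 558 to 1020 CPM with a median of 681 over ESC cells, and from 339 to 758 CPM with a median of 454 over ffEPSC cells. In 24 of 25 ffEPSC cells it was below the ESC median, and in 19 it was below the lowest ESC cell. The log2 ratio of the sums was -0.54, with -0.63 and -0.26 within sets 1 and 3 and -0.42 without the 4 shallow ESC cells. CBX5 (HP1 alpha) made up the largest part of the difference in CPM: ESC cells ran from 224 to 463 CPM with a median of 323, and ffEPSC cells from 119 to 329 CPM with a median of 190. Its summed levels were 325 and 203 CPM, a ratio of -0.68, with -0.76 within set 1 but -0.18 within set 3. CBX3 (HP1 gamma) was at 278 and 195 CPM (-0.51, with -0.51 and -0.67), and CBX1 (HP1 beta) at 97.0 and 82.9 CPM (-0.22, with -0.48 and 0.38). The annotation holds 9 pseudogenes named for CBX3 and 5 for CBX1, and their reads may not be separable from the parents.

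The H3K9 methyltransferases gave no common direction. SUV39H2, which trimethylates H3K9 in heterochromatin, was at 77.9 CPM in ESCs against 49.5 CPM in ffEPSCs (-0.64), with 22 of 25 ffEPSC cells below the ESC median. Its ratio was -1.01 within set 1 and 0.14 within set 3, so the direction turned. Its X-linked paralog SUV39H1 was at 11 and 14.7 CPM (0.39), with 1.41 and 0.61. Per length, SUV39H1 held 13.1% of the pair's level in ESCs and 24.2% in ffEPSCs. That share was 7.37% and 17.4% in the ESC sets and 21.7% to 32.3% in the 4 ffEPSC sets. Over single cells it overlapped, from 0 to 31.2% in ESCs and from 0 to 98.9% in ffEPSCs. EHMT1 and EHMT2, which form the complex that writes H3K9 dimethylation, were at 53.2 and 48.5 CPM (-0.13, with 0.17 and 0.62) and at 31.5 and 29.1 CPM (-0.11, with 0.19 and 0.44).

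Of the 7 KMT2 and SETD1 genes, most of them H3K4 methyltransferases, KMT2B and KMT2C were at least 1.5-fold higher in ffEPSCs and none was lower by as much, beside 18.7% and 13.4% of all genes. KMT2C, which writes H3K4 monomethylation at enhancers, ran from 9.35 to 76.1 CPM with a median of 38 over ESC cells and from 16.3 to 158 CPM with a median of 61.1 over ffEPSC cells. Its summed levels were 36.6 and 64.6 CPM (0.80), with 1.34 and 0.72 within sets 1 and 3, and 8 ffEPSC cells were above every ESC cell. KMT2D, its paralog, was at 15.3 and 15.2 CPM (-0.01, with 0.43 and 0.42). KMT2C thus held 73.4% of the per-length level of the pair in ESCs and 83.0% in ffEPSCs.

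KMT2B, which acts at promoters of developmental genes, was low in both states but higher in ffEPSCs. It was at 3.66 and 8.28 CPM (0.99), and 8 of 16 ESC cells and 20 of 25 ffEPSC cells held at least 1 CPM. Its ratio was 2.78 within set 1 and 0.23 within set 3. Its paralog KMT2A was at 36.8 and 36.4 CPM (-0.02, with 0.57 and -0.03), so the share of KMT2B in the pair was 13.9% in ESCs and 26.9% in ffEPSCs. KMT2E was at 50.1 and 65.3 CPM (0.37, with 1.01 and 1.09), SETD1B at 8.48 and 11.7 CPM (0.42, with -0.35 and 1.49) and SETD1A at 5.30 and 5.46 CPM (0.04, with 0.30 and 0.05). Over the class the median ratio was 0.37, with 0.57 and 0.42 for the same members within sets 1 and 3.

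Both measured methyltransferases of H4K20 were at least 1.5-fold higher in ffEPSCs, beside 18.7% of all genes. KMT5B, which adds the later methyl groups, ran from 2.21 to 73.5 CPM with a median of 18.9 over ESC cells and from 18.3 to 86.2 CPM with a median of 42.9 over ffEPSC cells. That placed 24 of 25 ffEPSC cells above the ESC median, with 2 above every ESC cell. Its summed levels were 20.6 CPM and 42.5 CPM, a ratio of 1.01, with 1.2 and 0.69 within sets 1 and 3. KMT5B lies on chromosome 11, and subtracting that chromosome's median left 0.67. KMT5A, which adds the first methyl group and peaks around mitosis, was at 5.55 and 10.3 CPM (0.79), with 1.05 and 0.77. Its ESC median cell was at 1.94 CPM and its ffEPSC median cell at 9.80 CPM, and 23 of 25 ffEPSC cells were above the ESC median. The summed KMT5 level was above the ESC median in all 25 ffEPSC cells, with a log2 ratio of 1.01.

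SETD5 stood out among the other SET domain genes. It encodes a chromatin protein linked to deacetylase complexes, and its promoter carries the CCAAT and GC boxes shown above. ESC cells ran from 17.2 to 162 CPM with a median of 65.4, and ffEPSC cells from 44.7 to 247 CPM with a median of 112. In 22 of 25 ffEPSC cells it was above the ESC median, and in 6 it was above every ESC cell. The summed levels were 69.3 and 121 CPM (0.79), with 1.25 and 0.60 within sets 1 and 3. SETD2, which trimethylates H3K36, was at 63.1 and 72.7 CPM (0.20, with 0.70 and 0.56), SETD3, an actin histidine methyltransferase, at 51.7 and 57.0 CPM (0.14, with 0.20 and -0.34), and SETD4 at 42.4 and 59.2 CPM (0.47, with 0.49 and 1.32). The 7 members of the group had a median ratio of 0.20, with 0.49 and -0.06 within sets 1 and 3.

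Demethylases as a class had a median ratio of 0.12 over 16 measured members and 0.17 and 0.04 within sets 1 and 3. KDM5B, an H3K4 demethylase and the most abundant one by CPM, was lower in ffEPSCs. The ESC cells lay between 76.2 and 307 CPM with a median of 194, and ffEPSC cells between 51.8 and 229 CPM with a median of 130. Its summed levels were 214 CPM (212 to 215) and 136 CPM (135 to 137), a ratio of -0.65, with -0.85 and -0.42 within sets 1 and 3, and 22 of 25 ffEPSC cells were below the ESC median. KDM5A was at 50.9 and 57.6 CPM (0.18, with -0.38 and 0.88) and KDM5C at 10.3 and 8.77 CPM (-0.21, with -2.16 and 1.43). KDM5B therefore held 76.2% of the KDM5 level per principal transcript length in ESCs and 65.9% in ffEPSCs, or 60.5% and 47.7% over the length of all its exons.

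KDM4C, an H3K9 demethylase whose promoter holds the pair of E-boxes shown above, was at least 2-fold higher in ffEPSCs, over all cells and within both sets. It was at 3.19 CPM in ESCs against 10.6 CPM in ffEPSCs, a ratio of 1.47, with 1.78 and 1.48 within sets 1 and 3. ESC cells ran from 0 to 11.7 CPM with a median of 2, and ffEPSC cells from 0 to 38.6 CPM with a median of 7.09, with 8 above every ESC cell. KDM4A, its more abundant paralog, was at 14.9 and 14.5 CPM (-0.03, with 0.14 and -0.36), and KDM4D at 4.20 and 5.10 CPM (0.23, with 0.55 and -1.95). The per-length share of KDM4C in the KDM4 family was 11.7% in ESCs and 29.9% in ffEPSCs.

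The H3K27 demethylases KDM6A and KDM6B differed from each other. KDM6B was at 2.28 CPM in ESCs, with a median cell at 0 and 44.6% of its counts in 1 cell, and at 5.90 CPM in ffEPSCs, a ratio of 1.07. It was at 0.75 and 0.56 within sets 1 and 3, and 20 of 25 ffEPSC cells were above the ESC median. KDM6A, on the X chromosome, was at 74.9 and 70.3 CPM (-0.09, with -1.94 and -0.17) with a wider spread over ffEPSC cells. The ESC cells lay between 33.7 and 141 CPM, and ffEPSC cells between 0.136 and 173 CPM, 8 of them below every ESC cell and 3 above. At 11000000 counts per cell its standard deviation over cells on the log2(CPM + 1) scale was 0.53 in ESCs and 1.70 in ffEPSCs. For measured genes of similar level the medians were 0.76 and 0.69. Among the rest, KDM1A, the LSD1 demethylase of H3K4, was at 87.8 and 91.6 CPM (0.06, with 0.19 and 0.72). KDM3B, an H3K9 demethylase, was at 35.1 and 60.6 CPM (0.77), with 1.11 in set 1 and -0.81 in set 3. KDM1B was at 6.22 and 2.77 CPM (-0.94), with -2.76 and 0.25.

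Of 7 measured acetyltransferases 1 was at least 1.5-fold higher and 2 were lower, beside 18.7% and 13.4% of all genes. The member with the most counts was among the lower. KAT7 (HBO1), which acetylates H3K14 and H4 and takes part in replication licensing, ran from 56.9 to 522 CPM with a median of 277 over ESC cells and from 80.8 to 256 CPM with a median of 183 over ffEPSC cells. All 25 ffEPSC cells were below the ESC median, though none was below the lowest ESC cell. Its summed levels were 299 CPM (297 to 301) and 180 CPM (178 to 181), a ratio of -0.73, with -0.68 and -0.61 within sets 1 and 3 and -0.95 without the 4 shallow ESC cells. Its spread over cells was narrower in ffEPSCs, with a standard deviation of 0.35 on the log2(CPM + 1) scale against 0.94 in ESCs. Measured genes of similar level had a median standard deviation of 0.35 in ffEPSCs and 0.48 in ESCs. KAT6A (MOZ) was at 29.5 and 14.5 CPM (-0.98), with -1.87 and -1.19, but at -0.44 without the shallow ESC cells. Its paralog KAT6B was at 33.7 and 47.1 CPM (0.47, with 1.07 and -0.11), so the per-length share of KAT6A in the pair was 44.3% in ESCs and 21.9% in ffEPSCs. KAT8, which acetylates H4K16, was at 7.15 and 11.4 CPM (0.61), with 1.42 and 1.28, and KAT14, a subunit of the ATAC complex, at 36.0 and 29.2 CPM (-0.30, with -0.98 and 0.88).

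The X-linked deacetylases HDAC8 and HDAC6 were at least 2-fold higher in ffEPSCs, over all cells and within both sets 1 and 3. HDAC8, which deacetylates the cohesin subunit SMC3, was at 9.44 CPM (9.08 to 9.82) in ESCs against 32.1 CPM (31.5 to 32.7) in ffEPSCs. ESC cells ran from 1.63 to 24.9 CPM with a median of 7.87, and ffEPSC cells from 3.25 to 96.6 CPM with a median of 29.7. The groups overlapped, with 17 of 25 ffEPSC cells above every ESC cell. The ratio was 1.66, with 1.09 and 1.74 within sets 1 and 3, while the ESC sets differed by 0.82 and the ffEPSC sets by 0.16. HDAC6, a cytoplasmic deacetylase of tubulin, ran from 0.103 to 49.7 CPM with a median of 10.3 over ESC cells and from 2.12 to 169 CPM with a median of 37.1 over ffEPSC cells. Its summed levels were 18.6 and 41.2 CPM (1.1), with 1.16 and 1.81, and 7 ffEPSC cells were above every ESC cell. Neither of these substrates is a histone.

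Of the class I deacetylases that act in nuclear repressor complexes, HDAC2 was lower and HDAC1 higher in ffEPSCs, each by less than 2-fold. HDAC2 had the highest CPM of all members, 789 in ESCs and 602 in ffEPSCs (-0.39, with -0.59 and -0.11 within sets 1 and 3). The ESC cells lay between 244 and 1305 CPM and ffEPSC cells between 377 and 965 CPM, with 23 of 25 ffEPSC cells below the ESC median. HDAC1 was at 78.8 and 122 CPM (0.62), and 13 of 25 ffEPSC cells were above every ESC cell. Within set 3, which holds only 2 ffEPSC cells, its ratio was -0.29, and within set 1 it was 0.32. Per length, HDAC1 held 31.7% of the pair's level in ESCs and 48.4% in ffEPSCs. By set this share was 29.4% and 33.5% in ESCs, and 44.0%, 53.3%, 30.8% and 48.3% in ffEPSC sets 1 to 4. HDAC3, another class I deacetylase, was at 98.6 and 92.8 CPM (-0.09, with -0.37 and -0.60). Among class IIa members HDAC5 was at 16.8 and 23.2 CPM (0.45, with 0.68 and -0.10), HDAC7 at 13.4 and 13.9 CPM (0.05, with -0.80 and 0.33) and HDAC9 at 8.94 and 8.31 CPM (-0.10, with -3.47 and 1.84).

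**Figure D3:**
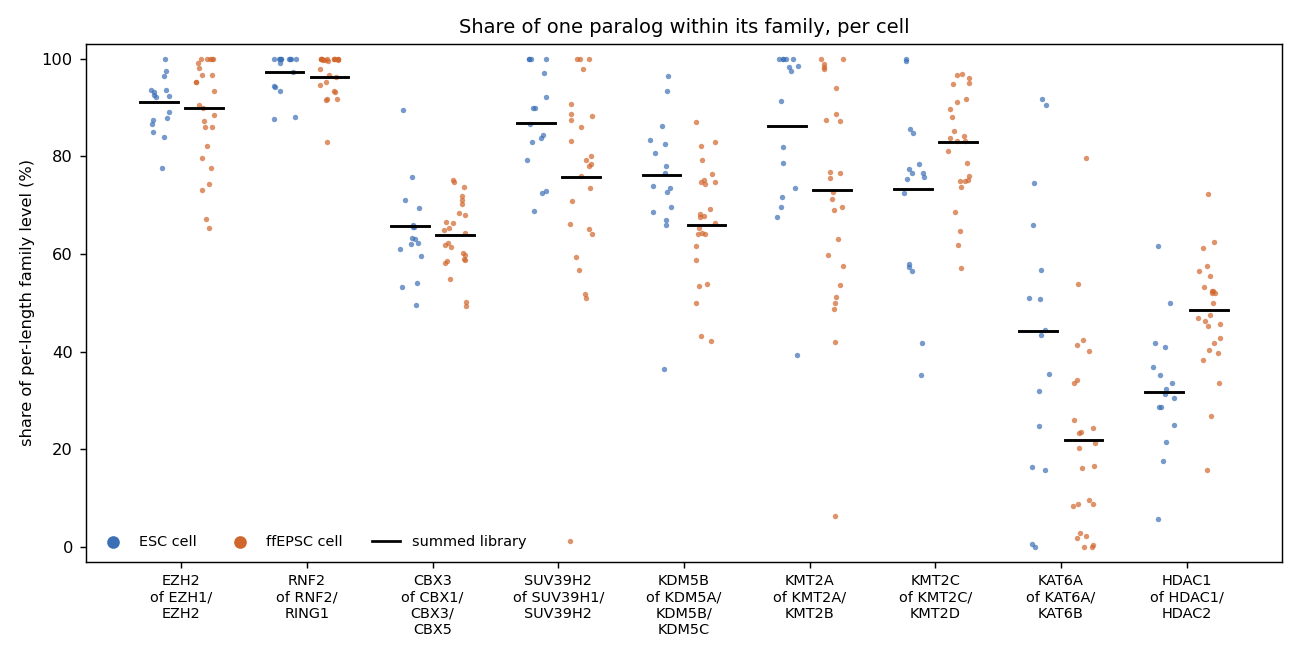
Share (y axis, percent) that the first-named gene held of its family's level per transcript length, in each ESC cell (blue) and ffEPSC cell (orange), with the summed sample as a black line. EZH2, RNF2 and CBX3 held nearly the same share in both states, KMT2C and HDAC1 a larger one in ffEPSCs (48.4% against 31.7% for HDAC1), and SUV39H2, KDM5B, KMT2A and KAT6A a smaller one.

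Sirtuins, the NAD-dependent deacylases, had ratios above 0 for all 5 measured, beside 5726 of the 10825 measured genes. At least 1.5-fold higher in ffEPSCs were 4 of these 5, beside 18.7% of all genes. The summed sirtuin level ran from 30.6 to 164 CPM with a median of 81.1 over ESC cells. Over ffEPSC cells it ran from 82.1 to 364 CPM with a median of 144. All 25 ffEPSC cells were above the ESC median and 9 were above every ESC cell. The log2 ratio of the sums was 0.81, but 0.26 within set 3, beside set differences of 0.42 among ESC cells and -0.44 among ffEPSC cells. SIRT3, the main mitochondrial deacetylase, was at 16.3 and 34.2 CPM (1.03), with 0.92 and 0.27 within sets 1 and 3. It lies on chromosome 11, and its ratio was 0.69 after subtracting that chromosome's median. SIRT1, a nuclear deacetylase, was at 25.9 and 48.2 CPM (0.87), with 1.57 and 0.33, and its ESC sets differed by 1.1. SIRT5, also mitochondrial, was at 26.0 and 35.3 CPM (0.42, with 0.71 and 0.55). SIRT2 was at 4.69 and 10.03 CPM (0.95, with -2.36 and 0.48), having passed the floor only through ffEPSCs, and SIRT6 at 13.1 and 22.9 CPM (0.77, with 1.74 and -0.83).

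**Figure D4:**
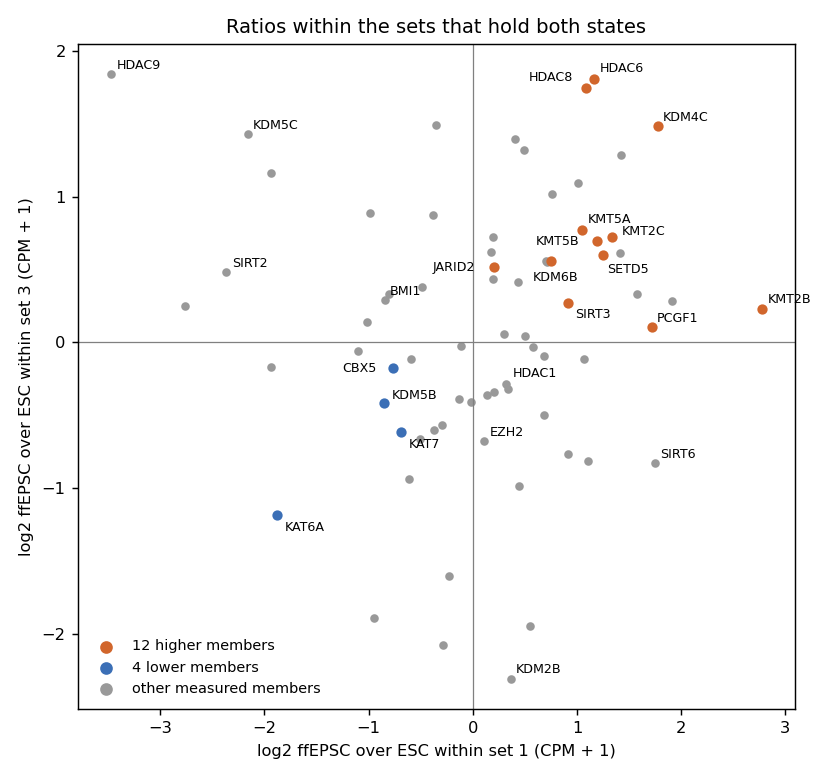
Log2 ratio of ffEPSC over ESC within set 1 (x axis) against that within set 3 (y axis) for the 72 measured coding members, with the 12 higher members in orange and the 4 lower members in blue, which lie to the upper right and lower left by their selection. HDAC9 (-3.47 and 1.84), KDM5C (-2.16 and 1.43) and KDM2B (0.36 and -2.31) lie far out with opposite signs.

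Writers and erasers were also summed by mark. For H3K27, EZH1 and EZH2 exceeded KDM6A and KDM6B per length by a log2 ratio of 1.79 in ESCs and 1.2 in ffEPSCs, with 1.55 and 3.38 within set 1 and 1.98 and 1.37 within set 3. Cell by cell, this order held for 15 of the 16 ESC cells but 18 of the 25 ffEPSC cells. For H3K9, the 4 measured methyltransferases exceeded the KDM3 and KDM4 demethylases by 1.69 and 0.87, but by 1.73 and 2.56 within set 3, and did so for all 16 ESC cells but 23 of the 25 ffEPSC cells. For H3K4, the KDM1 and KDM5 demethylases exceeded KMT2A to KMT2D with SETD1A and SETD1B in every cell, with log2 ratios of -2.81 and -2.21. These are ratios of RNA levels and say nothing of enzyme activity.

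Compared per length, CBX3 was the most abundant member in ESCs at 131 CPM per kb, followed by HDAC2 at 79.9, HDAC3 at 50.3, EZH2 at 44.5, CBX1 at 40 and HDAC1 at 37.1 CPM per kb. In ffEPSCs CBX3 was at 91.4, HDAC2 at 61.0, HDAC1 at 57.3 and HDAC3 at 47.3 CPM per kb. These levels use the principal transcript and depend on that choice. The CBX3 share of the HP1 level in ESCs was 65.7% by this length and 53.1% over the length of all exons. At least 1 CPM was found in every cell of both states for 28 of the 72 measured members, and the matching share of all genes is not given. The 39 members with at least 20 CPM in both samples formed 741 pairs. Across the cells of a state, their median Spearman rho was 0.04 in ESCs and 0.05 in ffEPSCs. The cells of a state share their library preparation and depth, and the values are descriptions.

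Partners of these enzymes were taken from 8 lists with 141 other chromatin genes. Of the 137 that the count table lists, 125 were measured, of which 11 (8.8%) were 2-fold or more higher in ffEPSCs, beside 8.3% of all genes, and 2 (1.6%) were lower by as much, beside 5.84%. BCOR, the X-linked corepressor that joins PCGF1 in a variant PRC1, was at 73.8 CPM in ESCs against 205 CPM in ffEPSCs (1.46), with 1.85 and 1.77 within sets 1 and 3. ESC cells ran from 20.6 to 148 CPM and ffEPSC cells from 112 to 355 CPM, with overlap. PCGF5, another PRC1 subunit, was lower at 10.5 and 3.63 CPM (-1.32, with -0.38 and -2.21). Of the deacetylase complex partners, RCOR1 (1.1, with 1.04 and 0.81) and TBL1X (1.21, with 2.15 and 2.07) were at least 2-fold higher by log2 ratio. At 1.5-fold, 7 of the 22 measured were higher, beside 18.7% of all genes, and none was lower, beside 13.4%. Of 34 acetyltransferases and their partners, TAF1 (1.54, with 1.35 and 1.87), BRPF1 (1.15, with 1.22 and 2.38), BRD1 (1.21, with 2.33 and 0.85) and JADE2 (1.51, with 1.89 and 0.41) were higher and ING4 (-1.24, with -0.71 and -2.72) was lower. MEN1, the menin subunit of KMT2A and KMT2B complexes, had a log2 ratio of 1.08, with 2.58 and 1.75. The methyltransferases SETDB2 (1.33, with 1.57 and 0.59) and SMYD2 (1.54, with 1.85 and 1.28) were higher too. RCOR1, BRD1, MEN1 and JADE2 lie on chromosomes 14, 22, 11 and 5. The median ratios of those chromosomes, 0.33, 0.48, 0.34 and 0.32, were not subtracted here. The medians of the 8 lists ran from -0.17 for PRC2 partners to 0.39 for PRC1 partners.

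Among the coding members below 5 CPM in both samples were RING1, CBX7, CBX8, KMT5C, KDM4B, KAT2B, SIRT4 and SIRT7, from 0 to 3.11 CPM in ESCs and from 0.385 to 4.10 CPM in ffEPSCs. SIRT4 had 0 counts in ESCs and 2.12 CPM in ffEPSCs, with at least 1 CPM in 10 of 25 cells. The 8 non-coding members were KDM2B-DT, KDM4A-AS1, KDM7A-DT, KMT2E-AS1, SETD4-AS1, KMT2CP1, KMT5AP1 and KMT5AP2. They stayed under 5 CPM in both samples, and their counts may hold reads of the coding genes, the use of strand being not given in the sources used here.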

How the data were processed

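The authors deposited raw gene counts as whole numbers, 1 column per cell. Tools in the submitters' processing notes were HISAT2 2.2.1, bcl2fastq, Subread 2.0.6 with featureCounts, and SAMtools 1.6, with GRCh38 and the CHM13 assembly as builds. Annotation, use of strand and handling of multiply mapped reads were not given in the sources used here. In each state over 98% of non-zero counts were even (98.5% and 98.4%), so the intervals are narrower than numbers of fragments would give. No cell was removed, 0 cell names were shared between the samples, doublets were not called and cells were not clustered. Whether the cells of a state came from 1 culture is not stated. Repeat tables were not used.

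The cells of a sample were added up and scaled to CPM in Python 3.11.15 (pandas 2.3.3, SciPy 1.17.1). All 22474 genes were processed alike, and members were counted as measured at 5 CPM in at least 1 sample. TMM factors came from edgeR 4.0.16 in R 4.3.3 as 1 alternative scaling, and no model was fitted. With 1 sample per state there is no test. Chromosomes, pseudogenes and lengths (principal transcript) come from GENCODE 29 on GRCh38, promoters from RefSeq on GRCh38.p14. Spread over cells used counts thinned to 11000000 per cell. The steps were tested on simulated data.

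The members and lists were chosen with earlier results of these data known. Named were all measured Polycomb and HP1 members, all members past 1.5-fold, in each other class the 3 highest by CPM, paralogs with a share, and other chromatin genes past 2-fold. Further members are named beside their paralogs or for contrast, chosen after their values were seen. Results of some genes are not reported here. Alternatives were other scalings, pseudocounts and floors, means or medians of cells, sets 1 or 3 only, leaving out the 4 shallow ESC cells or each cell, and subtracting chromosome medians.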

Additional observations from a re-analysis of the deposited data

How the results depend on the processing

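No paired analysis was possible because each state was 1 sample. The 7 members at least 2-fold higher became 4 with a floor of 20 CPM, 18 within set 1 and 13 within set 3, where the floor was applied anew, and 4 to 9 when each cell was left out. The count of 4 came without ffEPSC cell F2 of set 2, and 5 without cell H8 of set 4. The 0 members at least 2-fold lower became 1 with TMM factors, median-of-ratios factors or the mean of cells, 2 with the median of cells or a pseudocount of 0.1 CPM, 8 within set 1, 5 within set 3, and 0 to 2 when each cell was left out. The 20 members at least 1.5-fold higher became 12 with the floor of 20 CPM, and 18 to 22 when each cell was left out. The 7 lower became 16 and 14 within sets 1 and 3, and 6 to 8 when each cell was left out. The median ratio of 0.19 became 0.13 with the floor of 20 CPM, 0.11 with the median of cells, 0.11 after subtracting chromosome medians, 0.33 and 0.23 within sets 1 and 3, and 0.24 without the 4 shallow ESC cells (0.13 to 0.22 when each cell was left out). Among the 27 members past 1.5-fold only, the sign turned within set 1 for EZH2 (0.11), BMI1 (-0.85) and SIRT2 (-2.36). Within set 3 it turned for SUV39H2 (0.14), KDM1B (0.25), KDM3B (-0.81), HDAC1 (-0.29) and SIRT6 (-0.83). Of the 27 members past 1.5-fold, 19 kept their sign in all 11 alternative settings. Several of these settings rescale the same summed counts, and the matching share of all genes is not given. Within both sets 1 and 3, the sign was kept by 55.6% of the measured members, beside 53.4% of all genes.

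Class medians moved as follows, beyond their range when each cell was left out. PRC2 (-0.41, left-out range -0.47 to -0.28) was at 0.11 and -0.94 within sets 1 and 3, 0.028 with the median of cells, -0.22 without the shallow cells and -0.18 with the floor of 20 CPM. PRC1 (0.29, 0.21 to 0.38) was at -0.11 and 0.039 within the sets, 0.39 with the mean of cells, 0.18 without the shallow cells, 0.48 with no floor and -0.15 with the floor of 20 CPM. HP1 (-0.51, -0.56 to -0.39) was at -0.18 within set 3, -0.28 without the shallow cells, -0.56 with the mean of cells and -0.57 with median-of-ratios factors. The H3K9 methyltransferases (-0.12, -0.18 to -0.03) were at 0.18 and 0.53 within the sets and -0.24 without the shallow cells. KMT2 and SETD1 genes (0.37, 0.30 to 0.45) were at 0.57 and 0.57 within the sets, 0.63 with the median of cells and 0.46 minus chromosome medians. KMT5 (0.90, 0.82 to 1.03) was at 1.12 and 0.73 within the sets, 1.51 with the median of cells, 0.81 without the shallow cells and 0.75 minus chromosome medians. Other SETD genes (0.20, 0.12 to 0.25) were at 0.49 and -0.057 within the sets, 0.31 with the median of cells and 0.28 without the shallow cells. Demethylases (0.12, 0.01 to 0.15) were at 0.17 within set 1, -0.041 with the median of cells, 0.28 without the shallow cells and -0.00095 minus chromosome medians. Acetyltransferases (0.38, 0.31 to 0.43) were at -0.11 within set 3, -0.30 with the median of cells, 0.44 with the pseudocount of 0.1 CPM, 0.22 without the shallow cells, 0.046 minus chromosome medians and -0.51 with the floor of 20 CPM. Zinc-dependent deacetylases (0.25, 0.14 to 0.45) were at 0.12 within set 3, 0.036 without the shallow cells and 0.53 with the floor of 20 CPM. Sirtuins (0.87, 0.77 to 0.96) were at 0.33 within set 3, 1.03 with the median of cells, 0.76 without the shallow cells and 0.69 minus chromosome medians. The causes were not tested. Sets 1 and 3 hold only 3 and 2 ffEPSC cells, which limits what the ratios within them can show, and members near 5 CPM rest on few cells.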

Other observations

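The X-linked genes among these members and the other chromatin genes were grouped after their values were seen, so the counts are a description. Of 15 measured, 5 (33.3%) were at least 2-fold higher: HDAC6, HDAC8, BCOR, TBL1X and TAF1. None of the 15 was 1.5-fold lower, beside 61 of the 406 measured X-linked genes and 13.4% of all genes. Among all 406 measured X-linked genes 45 (11.1%) were at least 2-fold higher, and among the 181 members and chromatin genes elsewhere 13 (7.18%) were. KDM6A, KDM5C and SUV39H1 are on the X chromosome too, and stood at -0.09, -0.21 and 0.39. HDAC6, HDAC8, BCOR, TBL1X and TAF1 were each higher within both set 1 and set 3, with the smallest ratio at 1.09 for HDAC8 within set 1. Only the sizes are given, since the design has no replicate samples.

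Over the cells of a state, which share library preparation and depth, the median rank correlation between the 39 members with at least 20 CPM in both samples was near 0. SETD3 and KDM5B had a Spearman rho of 0.59 over the 16 ESC cells and 0.55 over the 25 ffEPSC cells, and SETD5 and KDM1A had 0.56 and 0.57. These were the 2 of 741 pairs above 0.5 in both states, picked after the values were seen. The share of such pairs among other genes is not given.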
